A study of Mus musculus with 6 samples.

Results

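The genes described here code for proteins that astrocytes release and that act on synapses: the thrombospondins Thbs1, Thbs2 and Thbs4, the matrix proteins Sparc and Sparcl1, the glypicans Gpc4, Gpc5 and Gpc6, and the chordin-like protein Chrdl1. They were chosen by gene symbol from a list of 10 symbols, of which 9 had a row of their own in the deposited table of 45777 genes. The remaining symbol, Hevin, is listed by RefSeq as a synonym of Sparcl1, so its values are those of Sparcl1. All 9 genes had at least 1 count in every sample and were among the 22337 genes tested.

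Gene expression was measured by RNA sequencing of sorted tdTomato-positive brain cells from mice given streptozotocin (STZ), a toxin of the pancreatic beta cells that produces hyperglycemia, or vehicle. The design put 3 STZ samples against 3 vehicle samples and asked how the astrocyte transcriptome differs under hyperglycemia. All mice were Aldh1l1 CreERT2; tdTomato fl/fl males on a C57BL/6 background, labelled as wild type, and all had received tamoxifen at 75 mg/kg for 5 days. Cre was driven by Aldh1l1, so the sort took cells in which this astrocyte gene had been active, and also any other cell with recombination. At 8 weeks of age the STZ group received 1 intraperitoneal dose of 150 mg/kg in citrate buffer, the vehicle group received the buffer alone, and brains were taken 21 days later. Mice entered the STZ group only when their blood glucose had risen after the injection. Each sample pooled the sorted cells of 3 mice, so the spread between samples is a spread between pools and not between animals.

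Astrocyte signals of this kind work in opposing directions. Thrombospondins bind the calcium channel subunit alpha2delta-1 on neurons and promote the formation of excitatory synapses that are structurally normal but lack active AMPA receptors, while Sparcl1, also called hevin, links adhesion proteins of the presynaptic and postsynaptic membranes. Sparc is a relative of Sparcl1 that can antagonize the synaptogenic action of Sparcl1. Glypicans are heparan sulfate proteoglycans anchored to the membrane that can be shed, and Gpc4 and Gpc6 were described as astrocyte signals that recruit AMPA receptors to young synapses, whereas Chrdl1 promotes synapse maturation and limits plasticity.

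The deposited counts summed to between 52529048 and 58749115 per sample, and the 9 genes together held 0.825% to 1.03% of them. The sorted cells carried the defining astrocyte genes, with means over the 6 samples of 2294 FPKM for Aldoc, 1466 FPKM for Gja1 and 1361 FPKM for Slc1a3. FPKM are counts divided by transcript length and depth, and they are used here wherever levels of different genes are compared. Normalized CPM, read counts scaled to library size with edgeR's TMM factors, are used to compare samples for single genes other than Mfge8 and Agt. Marker sums, Mfge8, Agt and the ratio of Sparcl1 to Sparc are compared between samples in FPKM, without these factors. On FPKM, 13.1% of all tested genes were higher in STZ without overlap and 5.64% lower, so that scale leans toward higher values in STZ. Markers of other cells were also present: the 10 ependymal and choroid plexus markers summed to 4374 to 13109 FPKM per sample, the 10 oligodendrocyte lineage markers to 483 to 1378 FPKM and the 10 microglia markers to 361 to 514 FPKM, with the groups overlapping for each. Ttr alone held 95.2% of the ependymal and choroid plexus sum, which without Ttr was 233 to 586 FPKM per sample. In these bulk samples, fewer cells of a type and less RNA per cell cannot be told apart.

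The 9 genes differed widely in level. Sparcl1 was the most abundant at 2063 ± 197 FPKM (SD, n = 6), the 11th highest mean of all 45777 genes listed. Sparc followed at 675 ± 166 FPKM (rank 62) and Gpc5 at 83.4 ± 8.71 FPKM (rank 815). Chrdl1 was at 29.0 ± 5.70 FPKM, and each of these 4 genes stood above the next in every sample with no overlap of their ranges. Gpc6 (10.7 ± 0.989 FPKM) and Gpc4 (10.1 ± 0.971 FPKM) were neighbours whose ranges overlapped, with Gpc6 higher in 5 of 6 samples. The thrombospondins were the least abundant: Thbs4 at 2.39 ± 0.656, Thbs2 at 2.32 ± 0.452 and Thbs1 at 1.44 ± 0.675 FPKM (SD, n = 6). Their ranges overlapped, so their order was not larger than the spread between samples. The mean of Sparcl1 was 1431 times that of Thbs1.

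Between STZ and vehicle, Sparc was the gene with higher values in every STZ sample, and Chrdl1, the 3 glypicans and Thbs2 had lower normalized CPM in every STZ sample. Sparcl1, Thbs1 and Thbs4 overlapped between the groups. None of the 9 genes passed the threshold of an adjusted p under 0.05 with a fold change over 1.5, by edgeR's quasi-likelihood test (5 of all tested genes called, 0.0224%) or by DESeq2 (234 called, 1.27%). At an unadjusted p under 0.05 from edgeR there were 6 of the 9, 1 higher and 5 lower, where 11.3% of all tested genes reached this level (5.63% higher and 5.65% lower). The same 6 genes had groups that did not overlap on normalized CPM, against 18.5% of all tested genes (8.64% higher and 9.85% lower). These genes vary together in places, so the 9 are not independent readings.

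The separation of the groups depended in part on the scale. Sparc was higher in every STZ sample on normalized CPM, on CPM of the total without TMM factors, on FPKM and on TPM. Gpc4 and Chrdl1 were lower in every STZ sample on all 4 scales. Gpc5 overlapped on FPKM, and Gpc6 and Thbs2 overlapped on both FPKM and CPM of the total. On CPM of the total, 12.8% of all tested genes were higher and 5.89% lower without overlap, and on FPKM 13.1% and 5.64%, so both sat further toward higher values in STZ than normalized CPM. On TPM the shares were 9.84% and 7.4%, and the same 6 of the 9 genes did not overlap as on normalized CPM.

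**Figure D1:**
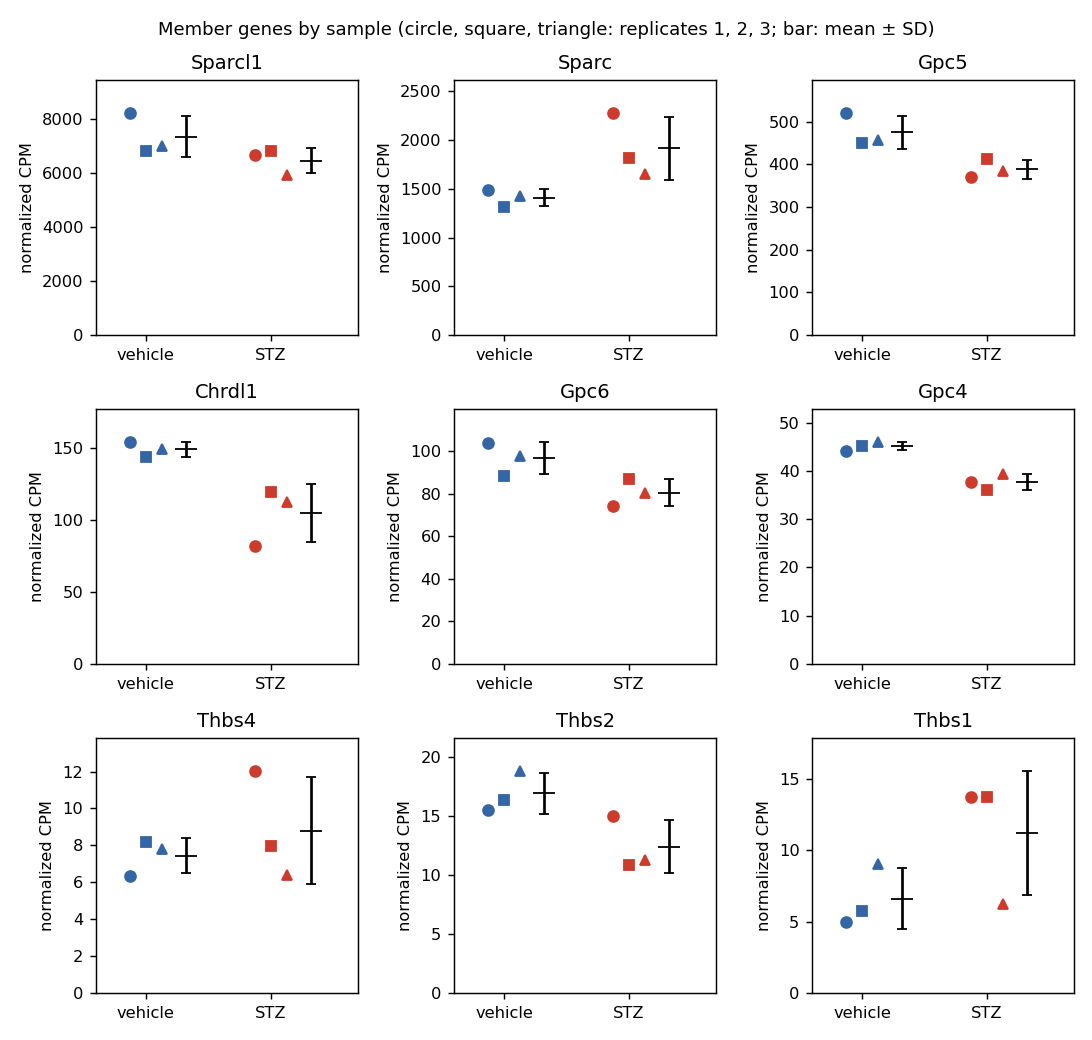
Normalized CPM (vertical axes, linear from 0) of the 9 genes in the 3 vehicle and 3 STZ samples, ordered by mean FPKM, with the mean and SD of each group as a bar. Sparc lies higher in all 3 STZ samples, Gpc5, Chrdl1, Gpc6, Gpc4 and Thbs2 lie lower in all 3, and Sparcl1, Thbs4 and Thbs1 overlap.

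**Figure D2:**
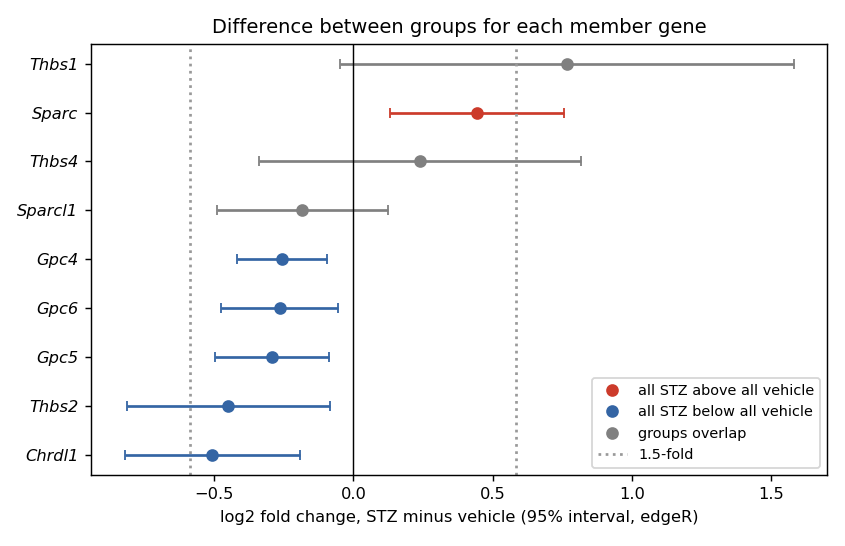
Log2 fold change of STZ minus vehicle for each gene with its 95% interval from edgeR, and dotted lines at a fold change of 1.5. Point estimates run from -0.51 for Chrdl1 to 0.77 for Thbs1, and the intervals of Sparcl1, Thbs4 and Thbs1 cross 0.

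The 250 bases in front of a listed transcription start are shown for the genes with groups that did not overlap and an entry among the RefSeq promoter sequences (build GRCm38.p6), to give the regulatory sequence beside the values that follow. Of the 9 genes, 5 were in that table, and Thbs1, Sparcl1, Gpc6 and Chrdl1 were not. Each sequence runs 5′ to 3′ on the strand of its gene and ends at the base before the start used in that table. For Gpc5 that start lies inside the RefSeq gene, so the last 14 bases shown belong to the annotated gene, and for the other genes shown the window stops before it. Capitals mark matches, searched on both strands. The letters searched were TATAAA for the TATA box, GGGCGG for the GC box, and CCAAT for the box of that name. No matches overlapped each other.
Sparc (chr11:55420081-55420330, minus strand): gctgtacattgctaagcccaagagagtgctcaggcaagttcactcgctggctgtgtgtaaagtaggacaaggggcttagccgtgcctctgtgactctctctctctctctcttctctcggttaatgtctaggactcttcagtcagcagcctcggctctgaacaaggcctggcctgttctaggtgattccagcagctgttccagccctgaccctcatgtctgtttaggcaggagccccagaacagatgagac
Gpc4 (chrX:52164924-52165173, minus strand): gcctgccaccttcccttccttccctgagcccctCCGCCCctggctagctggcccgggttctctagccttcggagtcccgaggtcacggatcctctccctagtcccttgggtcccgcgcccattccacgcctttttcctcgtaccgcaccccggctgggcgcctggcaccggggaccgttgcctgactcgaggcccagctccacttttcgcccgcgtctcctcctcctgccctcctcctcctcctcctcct
Gpc5 (chr14:115091965-115092214, plus strand): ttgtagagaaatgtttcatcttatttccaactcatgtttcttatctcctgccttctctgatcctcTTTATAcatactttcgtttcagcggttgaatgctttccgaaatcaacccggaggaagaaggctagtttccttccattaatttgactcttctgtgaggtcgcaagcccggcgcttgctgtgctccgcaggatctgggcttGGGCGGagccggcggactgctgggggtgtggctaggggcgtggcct
Thbs2 (chr17:14694263-14694512, minus strand): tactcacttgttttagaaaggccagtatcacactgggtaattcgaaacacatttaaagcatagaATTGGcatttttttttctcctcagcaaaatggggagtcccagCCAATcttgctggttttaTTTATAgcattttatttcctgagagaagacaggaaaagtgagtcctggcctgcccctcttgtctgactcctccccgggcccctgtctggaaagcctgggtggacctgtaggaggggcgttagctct

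Sparc held none of the 3 motifs, Gpc4 held 1 GC box, Gpc5 held 1 TATA and 1 GC box, and Thbs2 held 1 TATA and 2 CCAAT boxes. Among 32851 promoters of the same length, 12.4% held TATAAA, 32.7% held GGGCGG and 33.9% held CCAAT. The G and C content was 54.0% for Sparc, 68.4% for Gpc4, 51.2% for Gpc5 and 46.8% for Thbs2, beside a median of 52.4% over all promoters. A match is a match of letters only, and its absence says only that the letters are not in this window.

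Sparc (NCBI gene 20692, chromosome 11, 55394159 to 55420080, minus strand), the collagen-binding matrix protein that opposes Sparcl1, had its highest values in STZ. The vehicle samples had 1488, 1313 and 1427 normalized CPM and the STZ samples 2277, 1821 and 1652. All 3 STZ samples lay above all 3 vehicle samples, STZ replicate 1 was the highest, and the spread was wider in the STZ group. The means were 1409.5 ± 89.1 and 1917 ± 323 (SD, n = 3), and the log2 fold change was 0.44 (standard error 0.134, 95% interval 0.13 to 0.76). The unadjusted p from edgeR was 0.0118 and the adjusted p 0.326, and DESeq2 gave an adjusted p of 0.0635. As a ratio the difference was 1.36-fold, with an interval of 1.09 to 1.69.

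Sparcl1 (NCBI gene 13602, chromosome 5, 104079108 to 104114088, minus strand), the synaptogenic member of the pair, did not separate the groups. The vehicle samples had 8203, 6792 and 6983 normalized CPM and the STZ samples 6638, 6801 and 5909. Vehicle replicate 1 was the highest and STZ replicate 3 the lowest, while STZ replicate 2 lay above vehicle replicate 2. The group means were 7326 ± 765 and 6449 ± 475 (SD, n = 3), and the log2 fold change was -0.18 (standard error 0.132, 95% interval -0.49 to 0.12, edgeR adjusted p = 0.623). Sparcl1 overlaps the long non-coding RNA gene LOC330143, whose counts were 5.43% of those of Sparcl1, and as no source says that strand was used in counting, reads could be shared between them.

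Because Sparcl1 and Sparc act against each other, their FPKM ratio was computed in each sample, as a description with no test. Sparcl1 stood at 4.11, 3.82 and 3.75 times Sparc in the vehicle samples and at 2.12, 2.73 and 2.69 times Sparc in the STZ samples. The means were 3.89 ± 0.190 and 2.52 ± 0.341 (SD, n = 3), and every STZ ratio was below every vehicle ratio. Leaving out any 1 sample kept the vehicle mean between 3.79 and 3.97 and the STZ mean between 2.41 and 2.71. Because the ratio is taken within a sample, the factor that scales each library drops out.

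**Figure D3:**
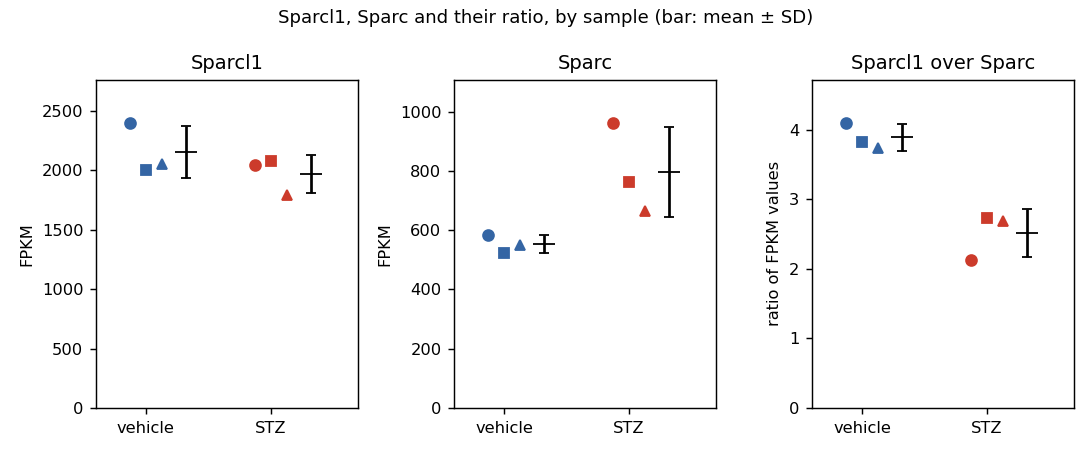
FPKM of Sparcl1 and of Sparc, and their ratio, in each vehicle and STZ sample, with group means and SD. The ratio runs from 3.75 to 4.11 with vehicle and from 2.12 to 2.73 with STZ, while the Sparcl1 levels overlap.

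Sparc is also made by endothelial cells, and markers of vessel cells had higher means in the STZ samples. All 15 endothelial markers had a higher mean in STZ, with a median log2 fold change of 1.14. Of them, 13 had an unadjusted p under 0.05 (edgeR), where 5.63% of all tested genes were higher at this level. There were 8 higher without overlap, against 8.64% of all tested genes. edgeR called 0 of the 15, and DESeq2 called 1 higher, Nostrin (DESeq2 adjusted p = 0.0497), where it called 0.792% of all tested genes higher. The summed level of the 15 markers was 38.3, 56.3 and 135 FPKM in the vehicle samples and 260, 195 and 139.7 FPKM in the STZ samples. STZ replicate 1, the highest in Sparc, was also the highest in this sum. Vehicle replicate 1 had the lowest sum but the highest Sparc of the vehicle samples, at 585 FPKM. Vehicle replicate 3 lay close to STZ replicate 3 in the sum, with Sparc at 549 and 664 FPKM. Without Ly6c1, the most abundant of the endothelial markers, the sum overlapped between the groups (88.8 FPKM in vehicle replicate 3 and 82.5 FPKM in STZ replicate 3).

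Of the 10 pericyte and smooth muscle markers, 9 had a higher mean in STZ, and DESeq2 called 4 higher, where it called 0.792% of all tested genes higher, while edgeR called 0. These 4 did not overlap between the groups. They were the contractile genes Tagln (6.26-fold, DESeq2 adjusted p = 7.27e-17, edgeR adjusted p = 0.0723), Acta2 (2.45-fold, DESeq2 adjusted p = 1.6e-11, edgeR adjusted p = 0.098) and Myh11 (2.69-fold), and the pericyte gene Rgs5 (2.03-fold). The list summed to 38.4, 46.1 and 58.9 FPKM with vehicle and 78.7, 67.2 and 57.7 FPKM with STZ, an overlap. Vtn and Pdgfrb, at log2 fold changes of 0.07 and -0.08, held 62.5% of that sum. Without them it was 10.2, 12.1 and 16.1 FPKM with vehicle and 35.9, 27.6 and 28.2 FPKM with STZ, with no overlap.

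Leptomeningeal fibroblasts also make Sparc. Their markers summed to 457 to 743 FPKM with vehicle and 474 to 576 FPKM with STZ, but Igfbp2, with a log2 fold change of -0.48, held 90.7% of the sum. Without Igfbp2 the sum was 15.8, 28.7 and 53.1 FPKM with vehicle and 73.0, 93.1 and 55.1 FPKM with STZ, so every STZ sample lay above every vehicle sample. Most of that was Mgp (log2 fold change 1.53, edgeR adjusted p = 0.39, no overlap), and without Mgp as well the sums overlapped. These sums without the most abundant genes were chosen after seeing the data. The part of vessel and meningeal cells in the Sparc difference was not tested.

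Chrdl1 (NCBI gene 83453, chromosome X, 143285674 to 143394263, minus strand), a secreted BMP antagonist that drives AMPA receptors at synapses toward the mature subunit composition, had its lowest values in STZ. The vehicle samples had 154, 144 and 149 normalized CPM and the STZ samples 82.4, 119.97 and 113. Vehicle samples lay close together, all 3 STZ samples lay below them, and STZ replicate 1 was the lowest. The means of 149 ± 5.23 and 105 ± 20.0 (SD, n = 3) corresponded to a log2 fold change of -0.51 (standard error 0.135, 95% interval -0.82 to -0.19). The unadjusted p from edgeR was 0.00633 and the adjusted p 0.301. DESeq2's adjusted p was 0.0432, but the level with vehicle was 1.42 times that with STZ, below the fold threshold of 1.5. Without STZ replicate 1, the log2 fold change was -0.36.

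Genes that mark brain regions varied with Chrdl1 and Sparc across the samples. Mfge8, listed as a marker of telencephalic astrocytes, had 3044, 2818 and 2904 FPKM with vehicle and 2026, 2550.0 and 2447 FPKM with STZ. Agt, which codes for angiotensinogen and is listed as a marker of non-telencephalic astrocytes, had 1276, 971 and 1094 FPKM with vehicle and 1861, 1502 and 1556 FPKM with STZ (log2 fold change 0.50, edgeR adjusted p = 0.302, DESeq2 adjusted p = 0.0282). STZ replicate 1 was the lowest for Mfge8 and the highest for Agt. The 6 telencephalic markers summed to 2904 to 3121 and 2100.0 to 2632 FPKM and the 10 non-telencephalic markers to 1249 to 1669 and 1771 to 2146 FPKM, with no overlap in either sum. Mfge8 held 97.0% of the first sum and Agt 82.2% of the second, and without that gene each sum overlapped. The transcription factor Lhx2, also on the telencephalic list, overlapped between the groups at a log2 fold change of -0.04. Hoxb5 and Hoxc4, of the hindbrain and spinal cord, were at 0 counts in all samples. The part of regional composition in the Chrdl1 and Sparc differences was not tested.

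**Figure D4:**
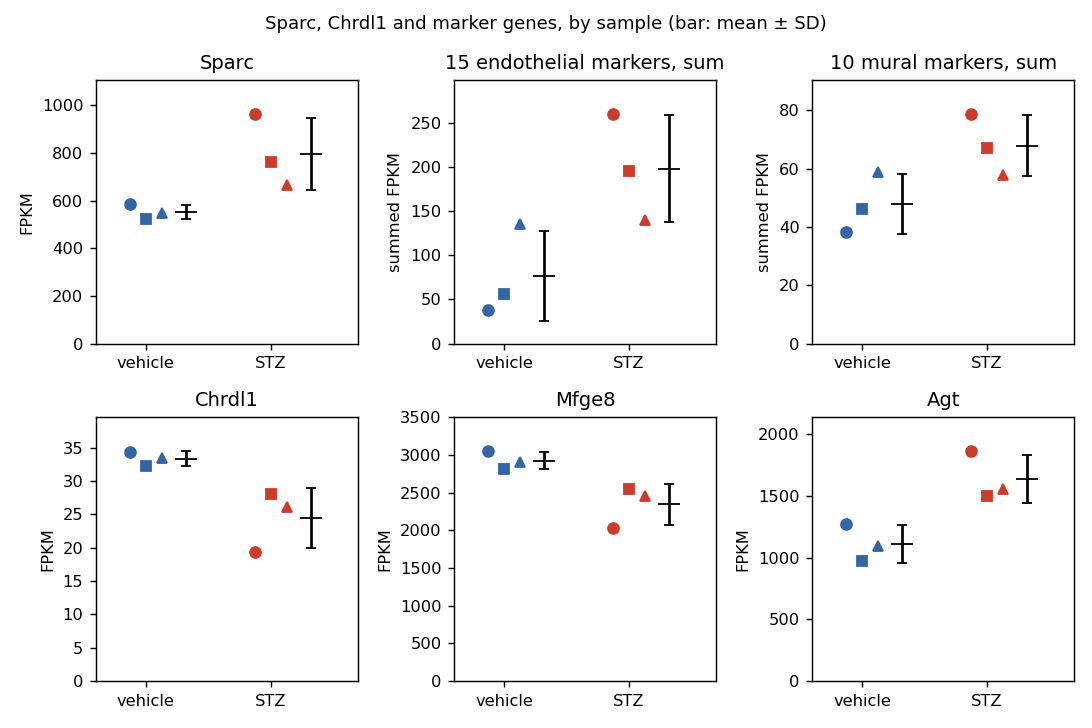
FPKM of Sparc beside the summed FPKM of 15 endothelial and 10 pericyte and smooth muscle (mural) markers, and FPKM of Chrdl1 beside Mfge8 and Agt, in each sample with group means and SD. STZ replicate 1 (circle) is the highest STZ sample for Sparc, both marker sums and Agt, and the lowest for Chrdl1 and Mfge8. Vehicle replicate 1 (circle) is the highest vehicle sample for Sparc and the lowest for both marker sums.

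The glypicans Gpc4, Gpc5 and Gpc6 had close log2 fold changes of -0.26, -0.29 and -0.27. Gpc4 (NCBI gene 14735, chromosome X, 52051007 to 52164923, minus strand), which recruits AMPA receptors through neuronal pentraxin 1, had 44.2, 45.1 and 46.0 normalized CPM with vehicle and 37.7, 36.1 and 39.5 with STZ. The means were 45.1 ± 0.880 and 37.8 ± 1.66 (SD, n = 3). The standard error of its log2 fold change, 0.0690, was the smallest of the 9 genes (95% interval -0.42 to -0.10). The edgeR p was 0.00649 before and 0.301 after adjustment. All 3 STZ samples lay below all 3 vehicle samples.

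Gpc5 (NCBI gene 103978, chromosome 14, 115092201 to 116525192, plus strand), the most abundant of the 3, had 521, 451 and 457 normalized CPM with vehicle and 369.8, 413 and 384 with STZ. Vehicle replicate 1 was well above the other samples, and the groups did not overlap on this scale. The means were 476 ± 38.7 and 389 ± 21.9 (SD, n = 3; 95% interval of the log2 fold change -0.50 to -0.09, edgeR adjusted p = 0.324). Gpc6 (NCBI gene 23888, chromosome 14, 116924920 to 117979529, plus strand), its neighbour on the chromosome, had 104, 88.5 and 97.8 with vehicle and 74.2, 87.0 and 80.2 with STZ. Vehicle replicate 2 and STZ replicate 2 of Gpc6 lay close to each other, and the means were 96.7 ± 7.64 and 80.4 ± 6.45 (SD, n = 3; 95% interval -0.47 to -0.06, edgeR adjusted p = 0.358). Both genes span over a megabase, 1433.0 kb and 1054.6 kb, and Gpc6 overlaps long non-coding RNA genes with counts up to 5.18% of its own. Across the 6 samples, Gpc5 and Gpc6 ran together with a Pearson r of 0.96, and Gpc6 and Chrdl1 with 0.93. These correlations describe 6 points that include both groups. Of the 10 astrocyte markers, 7 were lower and 3 higher in mean (median log2 fold change -0.15), with Aqp4 at -0.48 and Aldh1l1 at -0.22, both named after their values were seen, and Gjb6 at 0.27. On normalized CPM, 3 of the 10 were lower and 1 higher without overlap, against 9.85% and 8.64% of all tested genes. The summed level of the 10 overlapped, at 6178 to 7240.3 FPKM with vehicle and 6472 to 7115 FPKM with STZ. Aldoc, at a log2 fold change of 0.16, held 34.1% of that sum. Without Aldoc the sum was 4151 to 4928 FPKM with vehicle and 4139 to 4530 FPKM with STZ, still an overlap. The part of astrocyte marker levels in the glypican and Chrdl1 differences was not tested.

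The thrombospondins, large calcium-binding matrix glycoproteins, did not share a direction. Thbs1 (NCBI gene 21825, chromosome 2, 118111876 to 118127133, plus strand) had 4.98, 5.78 and 9.02 normalized CPM with vehicle and 13.7, 13.8 and 6.21 with STZ. Of the STZ samples, 2 stood above all vehicle samples and STZ replicate 3 lay inside the vehicle range. The means of 6.59 ± 2.14 and 11.2 ± 4.35 (SD, n = 3) gave the largest log2 fold change of the 9 genes, 0.77, and also the widest interval, -0.05 to 1.58 (edgeR adjusted p = 0.465). Without STZ replicate 3 the log2 fold change was 1.06 by edgeR (adjusted p = 0.298) and 1.05 by DESeq2 (adjusted p = 0.00912), which passed the threshold.

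Thbs2 (NCBI gene 21826, chromosome 17, 14665500 to 14694262, minus strand) had 15.5, 16.4 and 18.8 normalized CPM with vehicle and 14.97, 10.9 and 11.3 with STZ. STZ replicate 1 was close to the lowest vehicle sample, and the other STZ samples were lower. The means were 16.9 ± 1.71 and 12.4 ± 2.26 (SD, n = 3; log2 fold change -0.45, 95% interval -0.81 to -0.08, edgeR adjusted p = 0.371). Thbs4 (NCBI gene 21828, chromosome 13, 92751586 to 92794818, minus strand) had 6.36, 8.17 and 7.80 with vehicle and 12.04, 7.94 and 6.40 with STZ. The 2 lower STZ samples of Thbs4 lay within the vehicle range and STZ replicate 1 above it. Its log2 fold change of 0.24 (95% interval -0.34 to 0.82, edgeR adjusted p = 0.745) turned to -0.05 without STZ replicate 1. Counts per sample were 267 to 833 for Thbs1, 633 to 1078 for Thbs2 and 341 to 730 for Thbs4. The standard errors of their log2 fold changes were 0.350, 0.156 and 0.248. Sparcl1, with at least 347141 counts per sample, had 0.132, and Gpc4, with 2103 to 2634, had 0.0690. Precision therefore did not follow the counts alone.

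The genes most like 4 of the 9 across the 6 samples were found by Pearson r of log2 CPM among genes with a mean of at least 5 FPKM, and are given as a description. For Chrdl1 they were Mfge8 (0.996), Hapln1 (0.995), a link protein of the perineuronal matrix, and Xrcc6 (0.993), a DNA repair protein. For Sparc they were Fbxo31 (0.996), Ankrd13a (0.988) and Slc37a4 (0.986). For Sparcl1 they were Tex12 (0.994), Trp53bp2 (0.988) and Exoc3l4 (0.986), and for Thbs1 Flna (0.994), a cross-linker of actin, Iqgap1 (0.993), a cytoskeletal scaffold, and Aass (0.992). These were drawn from 8516 candidates for Sparcl1, Sparc and Chrdl1 and 8517 for Thbs1, over 6 samples that include both groups.

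Relatives, partners and processing genes of the 9 were read from fixed lists. Of 13 relatives in the thrombospondin, SPARC, glypican and chordin families, 11 were tested, 6 higher and 5 lower in mean, with a median log2 fold change of 0.09 beside 0.01 over all tested genes and -0.26 over the 9 genes. The most abundant were Fstl1 (19.3 FPKM, log2 fold change -0.09), Gpc1 (13.8 FPKM, -0.16), Smoc1 (7.60 FPKM, 0.09) and Gpc2 (5.01 FPKM, -0.48). Gpc2, a glypican of developing neurons, was lower in all 3 STZ samples at 13.4, 13.7 and 13.2 normalized CPM against 20.2, 19.1 and 16.8 with vehicle. Its edgeR adjusted p was 0.253 and its DESeq2 adjusted p 0.0258, with a fold of 1.39. edgeR and DESeq2 called 0 of the 11, and 1 was lower and 2 higher at an unadjusted p under 0.05 from edgeR (5.65% and 5.63% of all tested genes).

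Of 28 receptors, binding partners and targets, 27 were tested, 21 of them lower and 6 higher in mean (median log2 fold change -0.17), with 0 called by either tool. At an unadjusted p under 0.05 from edgeR, 4 were lower and 0 higher, where 5.65% of all tested genes were lower and 5.63% higher. The thrombospondin receptor Cd47 (133 FPKM, log2 fold change -0.09), the AMPA receptor subunit Gria2 (49.8 FPKM, -0.22) and the integrin Itgb1 (28.3 FPKM, -0.03) overlapped between the groups. Among those at that p were Nlgn3 (-0.33), a neuroligin, and the BMP ligands Bmp2 (-0.86) and Bmp7 (-0.22), named after their values were seen.

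Of 20 genes of heparan sulfate synthesis and glypican processing, 19 were tested, 12 lower and 7 higher in mean (median log2 fold change -0.10), with 0 called by either tool. By edgeR, 0 were lower and 2 higher at an unadjusted p under 0.05 (5.65% and 5.63% of all tested genes). Gpld1, a phospholipase that can cut glypican anchors (110.2 FPKM, log2 fold change -0.14), and the heparan sulfate polymerase subunit Ext2 (34.9 FPKM, -0.12) overlapped between the groups, and Extl2 (19.5 FPKM, -0.19) did not. Sulf1, an extracellular sulfatase of heparan sulfate, had 38.6, 94.7 and 81.3 normalized CPM with vehicle and 42.2, 30.3 and 56.8 with STZ, an overlap with a log2 fold change of -0.73 (edgeR adjusted p = 0.474). Notum was higher in all 3 STZ samples, at 9.56, 7.80 and 5.50 normalized CPM against 3.39, 5.22 and 5.39 with vehicle. Its log2 fold change was 0.71 (edgeR adjusted p = 0.402), and it was named after its values were seen.

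Of 18 other secreted regulators of synapses, 17 were tested, 11 lower and 6 higher in mean (median log2 fold change -0.07). By edgeR, 3 were lower and 1 higher at an unadjusted p under 0.05 (5.65% and 5.63% of all tested genes). Apoe, the lipid carrier and by far the most abundant at 14850 FPKM, had a log2 fold change of -0.02. The perineuronal proteoglycan Bcan (858 FPKM) was at -0.23, the norrin gene Ndp (53.6 FPKM) at 0.02 and the cytokine Il33 (41.3 FPKM) at -0.17. DESeq2 called 1 of the 17, Tnf, the cytokine that raises AMPA receptors at synapses, and among all genes it called 0.792% higher and 0.477% lower. Tnf had 0.765, 0.424 and 0.873 normalized CPM with vehicle and 2.59, 3.45 and 1.60 with STZ (log2 fold change 1.88, DESeq2 adjusted p = 0.000866, edgeR adjusted p = 0.218). All 3 STZ values were above the vehicle values, at a mean level of 0.928 FPKM.

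**Figure D5:**
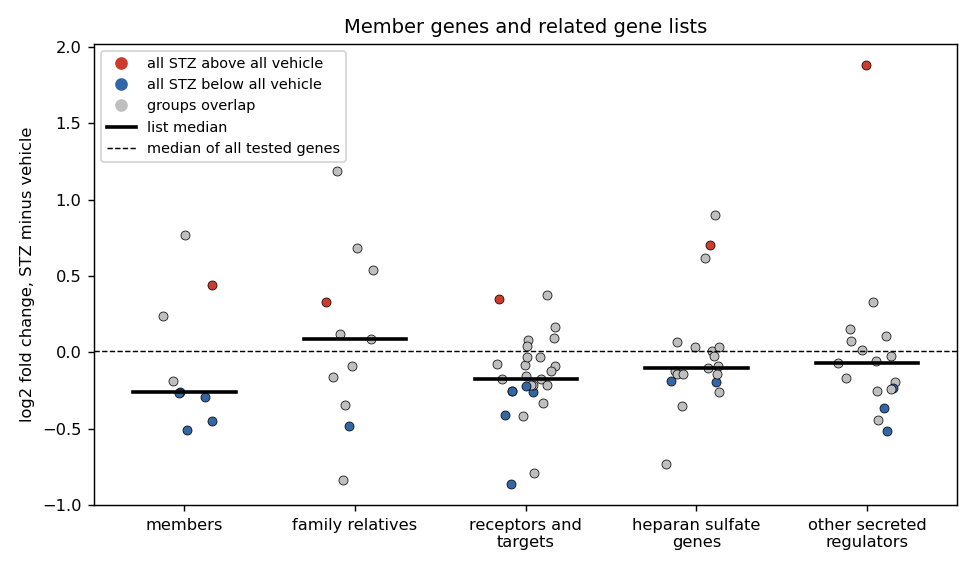
Log2 fold change of STZ minus vehicle for every tested gene of the 9 described here and of the 4 related lists, with list medians as bars and the median of all tested genes (0.01) as a dashed line. The median is -0.26 for the 9 genes, 0.09 for their relatives, -0.17 for receptors and targets, -0.10 for heparan sulfate genes and -0.07 for other secreted regulators.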

How the data were processed

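RNA from pooled sorted cells was made into libraries with the SMART-Seq kit from polyA RNA. Per the labels' processing notes, the tools were bcl2fastq 2.20.0, Trimmomatic 0.38, HISAT2 2.1.0, Bowtie2, SAMtools 1.9 and StringTie 2.1.3b with mm10; the annotation is not given in the sources used here. The authors deposited, per gene and sample, a whole-number read count without normalization. The FPKM values made by the authors are scaled by transcript length and depth, and so are the TPM values they deposited, which sum to about the same total in each sample. The authors removed outlier genes by a step they did not describe, which was not repeated.

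A gene entered the test if every sample had at least 1 count. The quasi-likelihood test of edgeR 4.0.16 (R 4.3.3) was fitted with TMM factors and no factor beside group, two-sided, and p-values were adjusted by Benjamini-Hochberg over all tested genes. A call was an adjusted p under 0.05 with a fold change over 1.5. DESeq2 1.42.0, the study's tool, and limma 3.58.1 on log2(TPM + 1) and log2(TPM + 0.1) were alternatives. Total counts of at least 52529048 per sample make 3 counts equal to at most 0.0571 CPM, which covers counting error only. Positions and promoters are from RefSeq on GRCm38.p6.

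The genes described and the lists were chosen with earlier results of these data known. Named in the text were the 9 genes, the 4 most abundant genes of each related list and any called there, up to 4 genes of a marker list, and for 4 of the 9 the 3 genes most like them. Some genes that this rule names are not reported here. Groups and numbers came from the sample titles. Further alternatives were other size factors, other filters, robust fitting, a replicate block, other thresholds and leaving out each sample. Those chosen after seeing the data were DESeq2 with filtering at 0.1, with the block and with each sample left out, and marker sums without their most abundant genes.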

Additional observations from a re-analysis of the deposited data

How the results depend on the processing

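With 3 pools per group the p-values measure only the spread between these pools. The log2 fold change kept its sign in all 22 alternatives for 8 of the 9 genes. The exception was Thbs4, which turned to -0.054 by edgeR and -0.059 by DESeq2 without STZ replicate 1, within leave-one-out ranges of -0.054 to 0.42 and -0.059 to 0.42. edgeR called 5 of all tested genes, 10 with robust fitting, 10 at an adjusted p under 0.1, 0 by limma on log2(TPM + 1), 0 by limma on log2(TPM + 0.1), and 0 to 1 with each sample left out. DESeq2 called 234, also with filtering at 0.1, and 119 to 688 with each sample left out (211, 126 and 688 without vehicle replicates 1, 2 and 3, and 119, 137 and 364 without STZ replicates 1, 2 and 3). Of the 9 genes, edgeR called 0 under every alternative run. DESeq2 called 0 to 1, which were Thbs2 without STZ replicate 1 (-0.61, adjusted p = 0.0123), Chrdl1 without STZ replicate 2 (-0.62, adjusted p = 0.0252) and Thbs1 without STZ replicate 3 (1.05, adjusted p = 0.00912). Without any 1 sample, edgeR's log2 fold change ran from 0.30 to 0.54 for Sparc, from -0.61 to -0.36 for Chrdl1 and from 0.60 to 1.06 for Thbs1. The cause of these moves was not tested.

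The replicate numbers in the titles were shared between groups, but samples with the same number did not deviate together (correlations of -0.10, -0.16 and -0.18), so the numbers were not read as pairs. With the replicate block, the edgeR count went to 0 (1793 genes had an unadjusted p under 0.05, against 2519 without it) and DESeq2 126.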
